A study of Mus musculus with 10 samples.

Results

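The genes described are 9 that code for matricellular and adhesion proteins of the extracellular matrix: Postn (periostin), Spp1 (osteopontin), Tnc (tenascin C), Thbs2 (thrombospondin 2), Sparc, Sparcl1, Fn1 (fibronectin), Tnxb (tenascin XB) and Vcan (versican). They were chosen by name, with earlier results of these data known, as the rows whose Ensembl identifier carries one of these symbols. They are 9 of the 14854 genes in each table. RNA-seq was done on cells sorted by flow cytometry from the lung mesenchyme of adult mice, in 10 libraries, with 2 libraries for each of 5 lineages. The Axin2:Pdgfra, Axin2, Pdgfra and Negative cells came from mice of the genotype Axin2CreERT2:tdT:PdgfraEGFP, which carry a tdT reporter for the Axin2 lineage and a PdgfraEGFP allele, so all 4 groups share these alleles and differ in which label the cells showed. The Wnt2 cells came from mice of the genotype Wnt2CreERT2:R26REFYP, so for that group the mouse line and the lineage cannot be told apart. CreERT2 is a recombinase that tamoxifen switches on, and it marks the cells that express its driver gene, Axin2 or Wnt2, and their descendants. The labels do not say which animals gave which library, so the p-values reflect the spread between these libraries and nothing wider, and that spread may be technical.

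Matricellular proteins are secreted into the matrix but act mainly as signals to the cells that bind them rather than as load-bearing fibres. Periostin, osteopontin, tenascin C and thrombospondin bind integrins and other receptors, SPARC and its relative bind collagen, and fibronectin forms a fibrillar network on which cells pull and into which other proteins are laid. In the lung many of these genes are low in the quiescent adult tissue and are induced, often by TGF-beta, in the myofibroblasts of wounds and fibrosis, whereas pericytes and smooth muscle cells also make some of them.

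Every value below is the deposited log2 level of a gene in a library, and a difference between groups is a log2 difference, so that 1 unit is a doubling. The tables had near-identical distributions, with medians of 9.1 to 9.11, and in each library 2.1% to 18.4% of genes shared the lowest value, which itself lay between 1.0 and 2.67. Genes at it are called listed at the lowest value below. Pdgfra library 1 is titled by EGFP alone and was placed with Pdgfra library 2 because both carry the same lineage value, GFP. Rank correlations between the libraries of a group were 0.778 to 0.929, against 0.671 to 0.885 between groups. The label gene Pdgfra was higher with the Pdgfra label, by 1.81 ± 0.36 (SE, adjusted p = 0.0177) within the Axin2 lineage and by 2.11 ± 0.36 (adjusted p = 0.00587) outside it, and it was highest in the Wnt2 libraries (16.05 and 16.25). The other label genes did not follow their labels: Axin2 was at 9.54 to 12.04 in the 4 libraries with its label and at 10.07 to 11.06 in the Pdgfra and Negative libraries, and Wnt2 was at 9.67 and 10.04 in the Wnt2 libraries and at 7.68 to 10.82 in the others. Mesenchymal markers were present in every library, but so was RNA of other cells: the alveolar epithelial marker Sftpc, the endothelial marker Cdh5 and, in the Negative libraries, hemoglobin genes. In sorted bulk samples, fewer cells of a type and less RNA per cell cannot be told apart.

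All 9 genes passed the filter on low values. They were chosen with earlier results of these data known, so the share of all genes given here is a scale and not a test. In an F-test over the 5 lineages, 8 of the 9 differed at a BH-adjusted p under 0.05 (limma), against 8.20% of all genes tested. Periostin stood highest among them, in place 4 of 14177 genes by p (adjusted p = 1.3e-05). Sparcl1 was the gene that missed the threshold (adjusted p = 0.0607). The 9 genes fell by their order of levels into patterns that are described in turn: periostin, osteopontin and Sparc were highest in the Axin2 and Negative cells, tenascin C, thrombospondin 2, tenascin XB and versican were highest in the cells with the Pdgfra label, and fibronectin and Sparcl1 were highest in the Wnt2 cells. The plot of levels by library shows these orders.

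**Figure D1:**
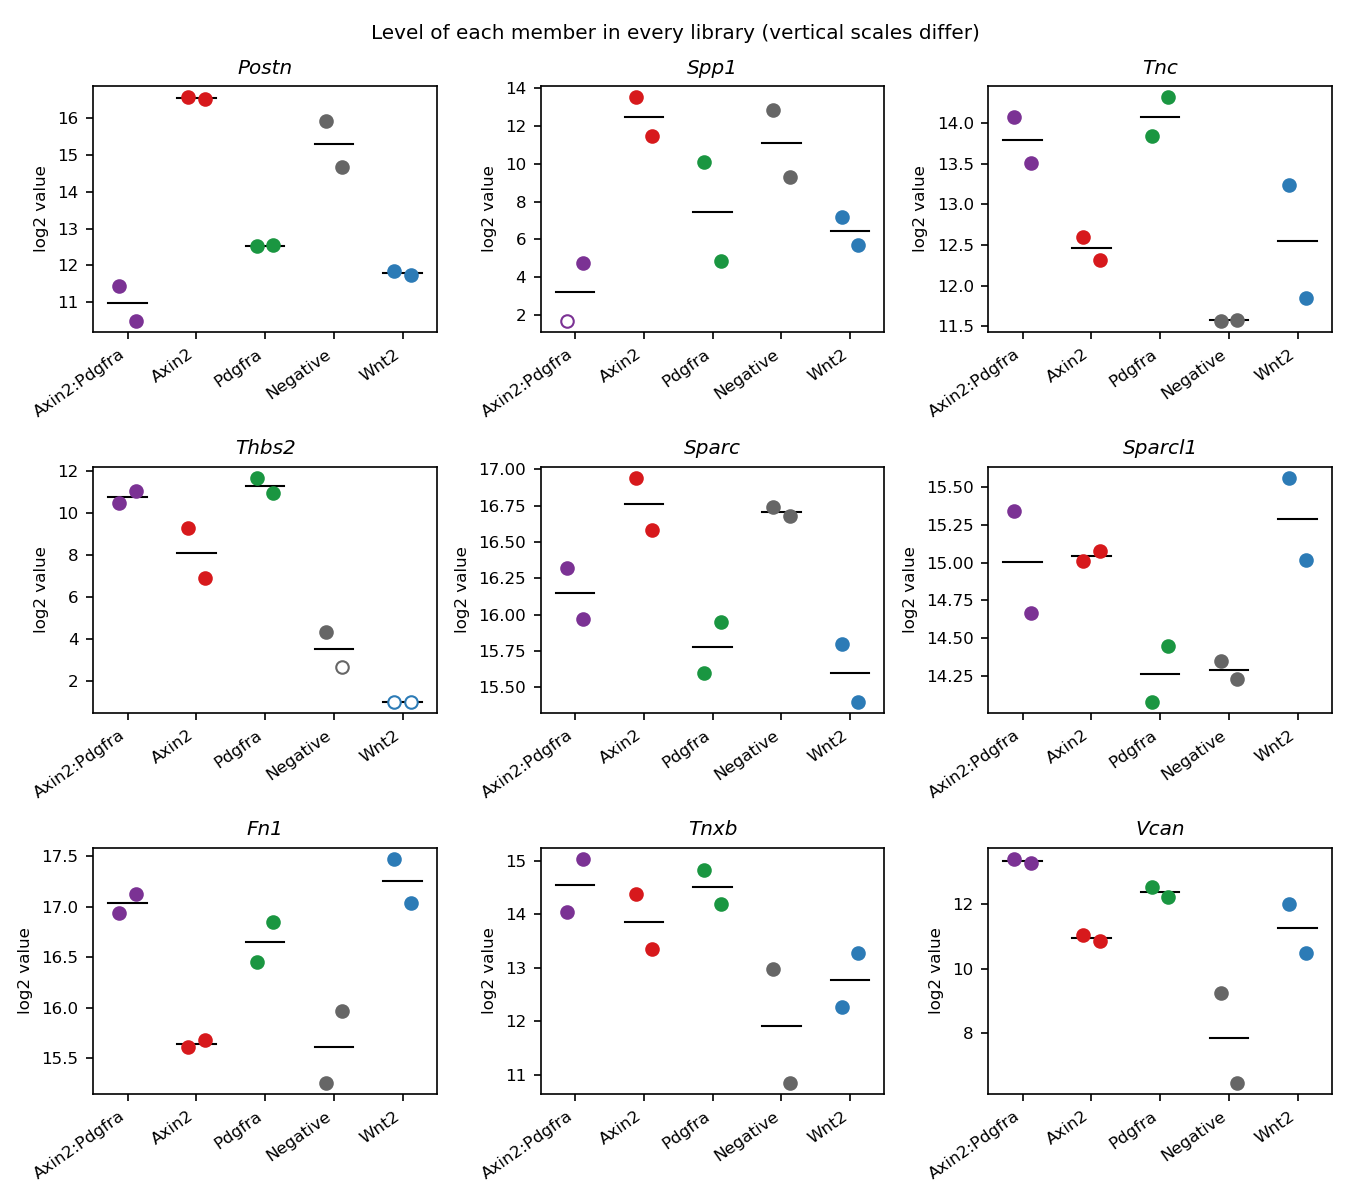
Log2 level of each of the 9 genes (vertical axis, a separate scale in each panel) in the 10 libraries, grouped by lineage along the horizontal axis; points are libraries, open points are libraries in which the gene is listed at the lowest value, and bars are the means of 2 libraries. Postn sits above 14 in the Axin2 and Negative libraries and below 13 in the rest, while Thbs2 is listed at the lowest value in both Wnt2 libraries.

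Periostin was high in Axin2 and Negative cells, and tenascin C, thrombospondin 2 and tenascin XB were high in cells with the Pdgfra label. Tenascin XB was also high in the Axin2 cells, whose libraries overlapped those with the Pdgfra label. The promoters of these 4 genes are shown because they stand for these patterns. Each is the 250 bases before the start site in the RefSeq table of build GRCm38.p6, 5′ to 3′ on the gene's own strand, with the matches of the searched motifs in capitals; the expression files use mm9, so these coordinates do not apply to that build. The table matched 7 of the 9 genes. Fn1 and Sparcl1 were not matched. The Postn sequence is chr3:54360857-54361106 on the plus strand, Tnc is chr4:64047016-64047265 on the minus strand, Thbs2 is chr17:14694263-14694512 on the minus strand, and Tnxb is chr17:34670285-34670534 on the plus strand.
Postn: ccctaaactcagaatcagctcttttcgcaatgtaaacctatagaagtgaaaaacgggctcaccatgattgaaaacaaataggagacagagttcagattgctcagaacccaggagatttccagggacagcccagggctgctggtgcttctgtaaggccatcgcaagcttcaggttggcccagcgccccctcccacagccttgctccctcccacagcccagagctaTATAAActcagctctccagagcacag
Tnc: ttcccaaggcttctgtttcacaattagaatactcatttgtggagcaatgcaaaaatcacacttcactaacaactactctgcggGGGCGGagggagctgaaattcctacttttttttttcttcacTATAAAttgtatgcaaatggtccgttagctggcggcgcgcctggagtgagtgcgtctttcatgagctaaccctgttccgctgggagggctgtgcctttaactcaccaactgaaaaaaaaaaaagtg
Thbs2: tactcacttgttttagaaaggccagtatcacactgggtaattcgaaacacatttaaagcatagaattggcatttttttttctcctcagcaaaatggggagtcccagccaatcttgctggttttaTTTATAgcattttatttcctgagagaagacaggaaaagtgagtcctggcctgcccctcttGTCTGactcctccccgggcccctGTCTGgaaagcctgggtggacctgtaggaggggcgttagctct
Tnxb: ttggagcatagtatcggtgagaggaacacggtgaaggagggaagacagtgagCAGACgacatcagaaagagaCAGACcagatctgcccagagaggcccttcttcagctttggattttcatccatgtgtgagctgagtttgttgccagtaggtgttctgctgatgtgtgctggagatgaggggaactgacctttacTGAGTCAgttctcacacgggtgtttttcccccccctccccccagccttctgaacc

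The motifs were searched on both strands. The TATA box, written TATAAA, was found in 3 of the 7 promoters and in 12.4% of the 32851 in the table. In Postn it lies at -26 to -21 from the start site, in Tnc at -126 to -121, and in Thbs2 at -126 to -121 on the reverse strand. CAGAC, the core to which SMAD proteins of the TGF-beta pathway bind, was found in 4 of 7 (Spp1, Thbs2, Sparc and Tnxb), against 42.2% of all promoters. TGANTCA, the AP-1 motif, was found in Tnxb alone of the 7, at -55 to -49, against 6.7% of all. GGGCGG, a GC box, was found in Tnc and Vcan, against 32.7% of all. GGAATG, the core of the TEAD motif, and the CArG box of serum response factor were found in none of the 7, against 12.6% and 1.5% of all. The RefSeq start sites lie 18 bases in Postn, 27 in Thbs2 and 268 in Vcan from the start of the principal transcript in the GENCODE annotation. For Vcan this is more than the window of 250 bases. A match says only that the letters occur in the window. The letters TATAAA lie nearer the start site in Postn than in Tnc and Thbs2, and any part of the motif in their levels was not tested.

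Periostin (Postn, ENSMUSG00000027750) binds integrins and promotes collagen cross-linking, and it is widely used as a marker of activated fibroblasts and myofibroblasts. It was at 16.58 and 16.53 in the Axin2 libraries, 15.92 and 14.68 in the Negative libraries, 12.52 and 12.56 in the Pdgfra libraries, 11.85 and 11.73 in the Wnt2 libraries, and 11.44 and 10.5 in the Axin2:Pdgfra libraries. No 2 groups overlapped, and the cells that carried both labels had the lowest periostin of all, although the cells with the Axin2 label alone had the highest. Between neighbours in this order, the step from Negative to Pdgfra passed the test (2.76 ± 0.40, 95% interval 1.90 to 3.63, adjusted p = 0.00273). The other steps did not: Axin2 over Negative was 1.26 ± 0.40 (adjusted p = 0.165), Pdgfra over Wnt2 was 0.75 ± 0.40 (adjusted p = 0.744), and Wnt2 over Axin2:Pdgfra was 0.82 ± 0.40 (adjusted p = 0.411).

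Within the Axin2 lineage, periostin was 48.0-fold lower with the Pdgfra label (log2 difference -5.58 ± 0.40, 95% interval -6.45 to -4.72, adjusted p = 1.69e-05). Outside it, periostin was 6.78-fold lower with the Pdgfra label (-2.76 ± 0.40, adjusted p = 0.00273). The difference between these differences was -2.82 ± 0.57 (95% interval -4.05 to -1.60), which did not pass after adjustment over all genes (unadjusted p = 0.000211, adjusted p = 0.237) and passed without Negative library 0 (-3.45, adjusted p = 0.0284). Both calls held when each library was left out in turn, with differences of -6.05 to -5.11 and -3.38 to -2.14, and the call outside the Axin2 lineage ended under eBayes without trend (adjusted p = 0.0949).

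Osteopontin (Spp1, ENSMUSG00000029304), a phosphoprotein that binds integrins and CD44 and is made by macrophages as well as by mesenchymal cells, had the same order of group means as periostin but a far wider spread. It was at 13.54 and 11.49 in Axin2, 12.88 and 9.33 in Negative, 10.08 and 4.83 in Pdgfra, 7.18 and 5.7 in Wnt2, and 1.7 and 4.74 in Axin2:Pdgfra, where the 1.7 is the lowest value of its library. Both Axin2:Pdgfra libraries were below all others, Axin2 and Negative overlapped, and the 2 Pdgfra libraries lay far apart, on either side of both Wnt2 libraries. No pair of neighbours in the order passed the test, with adjusted p-values of 0.302 to 0.952. With the Pdgfra label, osteopontin was lower within the Axin2 lineage by a log2 difference of -9.29 ± 1.77 (95% interval -13.08 to -5.50, adjusted p = 0.0134), and by -6.51 ± 1.41 (adjusted p = 0.0305) once values below 6 were raised to 6. This call was lost on leaving out Axin2 library 1 (-8.27, adjusted p = 0.159), Axin2 library 2 (-10.32, adjusted p = 0.0944) or library 1 of Axin2:Pdgfra (-7.77, adjusted p = 0.0766). Outside the Axin2 lineage the difference was -3.65 ± 1.77 (95% interval -7.44 to 0.14, adjusted p = 0.302); among the 2 pairs of libraries with the same index sequence it was 0.74 and -8.05.

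SPARC (Sparc, ENSMUSG00000018593), a collagen-binding glycoprotein that takes part in collagen assembly, was high in every library and moved little. It was at 16.94 and 16.58 in Axin2, 16.74 and 16.68 in Negative, 16.32 and 15.97 in Axin2:Pdgfra, 15.6 and 15.95 in Pdgfra, and 15.8 and 15.4 in Wnt2. The Negative libraries lay between the 2 Axin2 libraries, and all 4 were above the other 6. Sparc fell by 0.94 ± 0.21 on the log2 scale, a 1.92-fold difference, with the Pdgfra label outside the Axin2 lineage (adjusted p = 0.0303). Inside the lineage the difference was -0.62 ± 0.21 (95% interval -1.07 to -0.16, adjusted p = 0.171). The first of these ended without Pdgfra library 1 (-0.77, adjusted p = 0.231), Pdgfra library 2 (-1.11, adjusted p = 0.0743), Negative library 0 (-0.91, adjusted p = 0.0669) or Negative library 2 (-0.97, adjusted p = 0.0717).

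Sparcl1 (ENSMUSG00000029309), the nearest relative of Sparc and known from vessels and the nervous system, did not follow it. It was at 15.56 and 15.02 in Wnt2, 15.01 and 15.08 in Axin2, 15.34 and 14.67 in Axin2:Pdgfra, 14.35 and 14.23 in Negative, and 14.08 and 14.45 in Pdgfra. The Negative and Pdgfra libraries were below the other 6 and overlapped each other. The Pdgfra label made no detectable difference in either setting: it was -0.03 ± 0.28 (95% interval -0.63 to 0.56) within the Axin2 lineage and -0.03 ± 0.28 (95% interval -0.62 to 0.56) outside it. With the Axin2 label the difference was 0.74 ± 0.28 among Pdgfra-labelled cells (adjusted p = 0.293) and 0.75 ± 0.28 among the others (adjusted p = 0.222), so neither passed.

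Tenascin C (Tnc, ENSMUSG00000028364), a hexameric glycoprotein that loosens cell adhesion to fibronectin and returns in adult tissue after injury, was highest with the Pdgfra label. It was at 13.84 and 14.32 in Pdgfra, 14.08 and 13.51 in Axin2:Pdgfra, 13.24 and 11.85 in Wnt2, 12.6 and 12.32 in Axin2, and 11.57 and 11.58 in Negative. The 4 libraries with the Pdgfra label were above the other 6, and the Negative libraries were below all others. Tenascin C was 5.67-fold higher with the Pdgfra label outside the Axin2 lineage (2.50 ± 0.43, 95% interval 1.58 to 3.43, adjusted p = 0.00607), and this call ended without Pdgfra library 1 (2.74, adjusted p = 0.0506) or 2 (2.26, adjusted p = 0.093). Inside the lineage the difference was 1.33 ± 0.43 (95% interval 0.40 to 2.26, adjusted p = 0.143). The exons of Tnc overlap those of 8030451A03Rik on the other strand, which was at 1.75 to 8.68 in these libraries, and the strand used in counting is not given in the sources used here.

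Thrombospondin 2 (Thbs2, ENSMUSG00000023885), an inhibitor of angiogenesis that fibroblasts make, had the widest range of levels after osteopontin. It was at 11.65 and 10.92 in Pdgfra, 10.47 and 11.03 in Axin2:Pdgfra, 9.29 and 6.88 in Axin2, and 4.32 and 2.67 in Negative, and both Wnt2 libraries list it at their lowest value, 1.0. The 2.67 in Negative library 2 is also the lowest value of that library. The Pdgfra and Axin2:Pdgfra libraries overlapped, the Axin2 libraries lay below them, and those of Negative and Wnt2 lay below all of these. The order of Negative and Wnt2 rests on the lowest values of their libraries (2.49 ± 1.51, adjusted p = 0.373 in the limma test). With the Pdgfra label outside the Axin2 lineage the difference was 7.79 ± 1.51 (95% interval 4.56 to 11.02, adjusted p = 0.0125), and it was 5.28 ± 0.99 (adjusted p = 0.0126) with values below 6 raised to 6. That call ended without Pdgfra library 1 (7.42, adjusted p = 0.132) or 2 (8.16, adjusted p = 0.0812), and without the 2 libraries with most genes at the lowest value (6.96, adjusted p = 0.0515). Inside the lineage the difference was 2.66 ± 1.51 (95% interval -0.56 to 5.89, adjusted p = 0.472).

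Tenascin XB (Tnxb, ENSMUSG00000033327), a large glycoprotein that spaces collagen fibrils in loose connective tissue and whose loss causes a form of Ehlers-Danlos syndrome, was at 14.05 and 15.03 in Axin2:Pdgfra, 14.82 and 14.2 in Pdgfra, 14.38 and 13.34 in Axin2, 12.27 and 13.27 in Wnt2, and 12.98 and 10.85 in Negative. The first 3 groups overlapped among themselves, as did the last 2, and all 6 libraries of the former were above all 4 of the latter. With the Pdgfra label Tnxb was 6.05-fold higher outside the Axin2 lineage (2.60 ± 0.59, 95% interval 1.32 to 3.87, adjusted p = 0.0327), and the difference inside it was 0.68 ± 0.59 (95% interval -0.60 to 1.95, adjusted p = 0.703). The call ended without Pdgfra library 1 (2.29, adjusted p = 0.253), Pdgfra library 2 (2.91, adjusted p = 0.123) or Negative library 2 (1.53, adjusted p = 0.181).

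Versican (Vcan, ENSMUSG00000021614), a large proteoglycan that binds hyaluronan and swells provisional matrix, was highest in cells with both labels. It was at 13.4 and 13.28 in Axin2:Pdgfra, 12.53 and 12.23 in Pdgfra, 12.02 and 10.48 in Wnt2, 11.06 and 10.87 in Axin2, and 9.26 and 6.47 in Negative. The 2 groups with the Pdgfra label were above all others and did not overlap each other, the Wnt2 libraries lay on either side of the Axin2 ones, and the Negative libraries were lowest. The difference of Axin2:Pdgfra from Pdgfra did not pass the test (0.96 ± 0.77, 95% interval -0.68 to 2.60, adjusted p = 0.624). With the Pdgfra label versican was 22.8-fold higher outside the Axin2 lineage (4.51 ± 0.77, 95% interval 2.87 to 6.15, adjusted p = 0.00574), and this ended without Pdgfra library 1 (4.36, adjusted p = 0.0906) or 2 (4.67, adjusted p = 0.0671). Inside it the difference was 2.38 ± 0.77 (95% interval 0.74 to 4.02, adjusted p = 0.14), which passed without Negative library 0 (adjusted p = 0.0282) or 2 (adjusted p = 0.0222).

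Fibronectin (Fn1, ENSMUSG00000026193), the adhesive glycoprotein on which the tenascins and periostin are laid down, ran opposite to periostin. It was at 17.47 and 17.04 in Wnt2, 16.94 and 17.13 in Axin2:Pdgfra, 16.45 and 16.85 in Pdgfra, 15.61 and 15.68 in Axin2, and 15.26 and 15.97 in Negative. The 6 libraries of the Wnt2 group and of the groups with the Pdgfra label were all above the 4 libraries of Axin2 and Negative. Fibronectin rose with the Pdgfra label both inside the Axin2 lineage, by 2.61-fold (1.39 ± 0.23, 95% interval 0.89 to 1.89, adjusted p = 0.00629), and outside it, by 2.05-fold (1.04 ± 0.23, 95% interval 0.54 to 1.54, adjusted p = 0.03). Among neighbours in the order of levels, the step from Pdgfra to Axin2 passed the test (1.0 ± 0.23, adjusted p = 0.0398).

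With each library left out in turn, the fibronectin difference ran from 1.29 to 1.48 inside the Axin2 lineage and from 0.68 to 1.39 outside it. For the step from Pdgfra to Axin2 it was 0.81 or more. Each of the 3 fibronectin calls above was lost in several of these fits, some of which left out a library of neither group compared. The one inside the Axin2 lineage was lost on leaving out library 1 of Axin2 (1.35, adjusted p = 0.0647), library 2 of Axin2 (1.42, adjusted p = 0.0823) or library 2 of Axin2:Pdgfra (1.29, adjusted p = 0.0803). For fibronectin outside the lineage it ended without Axin2 library 2 (1.04, adjusted p = 0.0512), Pdgfra library 1 (1.23, adjusted p = 0.0862), Pdgfra library 2 (0.84, adjusted p = 0.209) or Negative library 0 (0.68, adjusted p = 0.108). The step from Pdgfra to Axin2 ended without either library of Axin2:Pdgfra (adjusted p = 0.0608 and 0.0593), of Axin2 (0.186 and 0.231) or of Pdgfra (0.129 and 0.213), and with the library index as a covariate (0.0623).

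Since the 9 genes were chosen with earlier results of these data known, the shares of all genes below are a scale and not a test. Counted over the 9 genes, 7 passed the test with the Pdgfra label outside the Axin2 lineage, against 2.91% of all genes tested. Of these, 5 were higher (Tnc, Thbs2, Fn1, Tnxb and Vcan; 2.03% of all genes were called higher) and 2 were lower (Postn and Sparc; 0.875% of all genes were called lower). Inside the Axin2 lineage 3 passed, against 2.30% of all genes: Fn1 was higher (0.924% of all) and Postn and Spp1 were lower (1.38% of all). The median difference of the 9 was 1.04 outside the lineage and 0.68 inside it, beside 0.03 and 0.02 over all genes. These 2 comparisons share no library, and the sign was the same in both for 9 of 9 genes, beside 58.3% of all genes tested. That count includes Sparcl1, at -0.03 in both, whose sign turned inside the lineage with the index covariate (0.01) or without Axin2:Pdgfra library 2 (0.30), and outside it without Pdgfra library 1 (0.16) or Negative library 0 (0.04). Other cell types moved with the comparison outside the lineage: 3 of 5 erythroid markers were called lower with the Pdgfra label (median -6.18), as was 1 of 11 epithelial markers, Ager (median -2.01). So were 1 of 7 mesothelial markers, Krt19 (median -2.88), and 1 of 5 Schwann cell markers, Sox10 (median -3.20). Inside the lineage 2 of 7 mesothelial markers, Gpm6a and Upk3b (median -4.69), and 2 of 10 endothelial markers, Eng and Esam (median -1.06), were called lower. No marker of these lists was called higher in either comparison. The summed epithelial level was 17.63 to 17.77 in Negative and 14.52 to 17.12 in all other libraries. The part of these cell types in the calls of either comparison was not tested.

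With eBayes without trend and robust, 1 of the 9 passed in each comparison, Thbs2 outside the lineage (0.501% of all genes) and Postn inside it (0.67% of all genes). Without Pdgfra library 1 or 2, 1 of the 9 passed outside it, beside 0.608% and 0.583% of all genes. Without Axin2 library 1 or 2, 1 passed inside it, beside 0.705% and 0.25% of all genes.

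**Figure D2:**
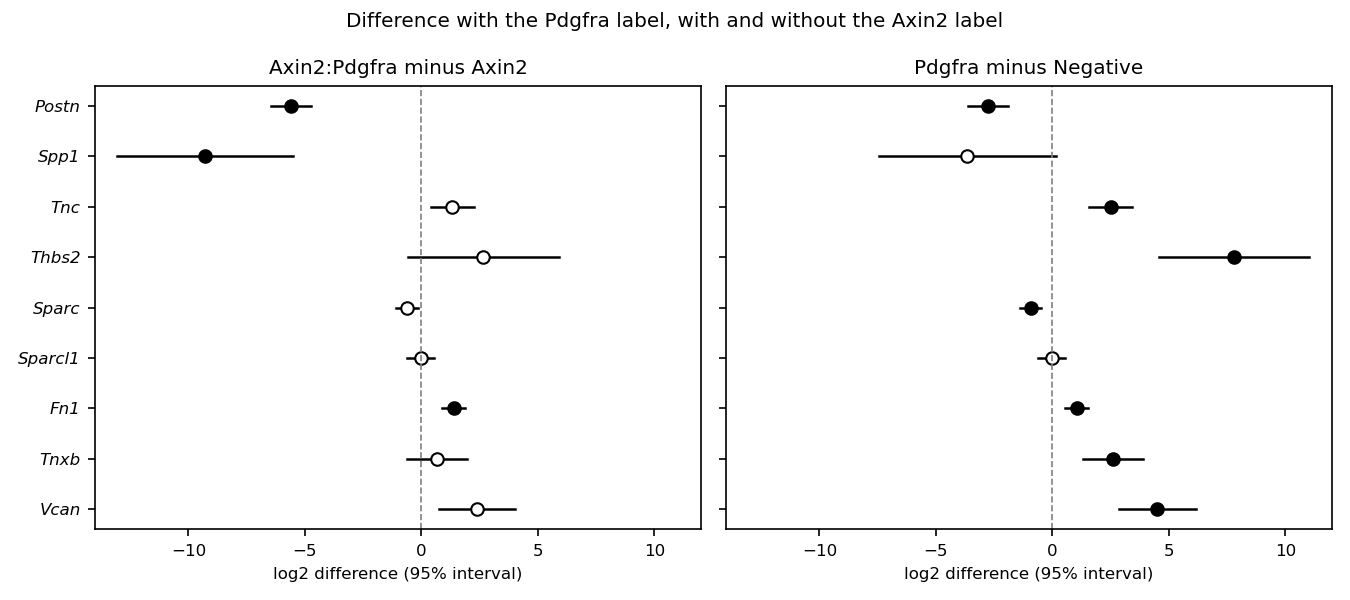
Log2 difference of each gene with the Pdgfra label (horizontal axis) within the Axin2 lineage (left) and outside it (right); bars are 95% intervals from the limma fit and filled points are differences with an adjusted p under 0.05. Postn lies left of 0 in both panels and Fn1 right of 0, while Sparcl1 sits at -0.03 in both.

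The comparisons of the Axin2 label called none of the 9 genes. Among Pdgfra-labelled cells none of the 9 passed in the limma test, against 0.0423% of all genes. An unadjusted p under 0.05 was found for 3 of the 9 and for 1801 of all 14177 genes tested. The differences of Axin2:Pdgfra from Pdgfra were -1.57 ± 0.40 for periostin (95% interval -2.43 to -0.70, adjusted p = 0.154), 0.74 ± 0.28 for Sparcl1 and -4.23 ± 1.77 for osteopontin (adjusted p = 0.34), and for tenascin XB the difference was 0.03 ± 0.59 (adjusted p = 0.99). Among cells without the Pdgfra label none of the 9 passed either, against 0.600% of all genes (0.240% higher and 0.360% lower). There 5 of the 9 had an unadjusted p under 0.05, as had 2012 of all 14177 genes tested.

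Here all 9 differences were above 0, beside 52.8% of all genes, with a median of 1.26 beside 0.08 over all genes. The smallest were those of Sparc (0.05) and Fn1 (0.03), which turned negative with the index covariate (-0.0072 and -0.0035), and that of Spp1 turned negative without Negative library 2 (-0.37). The largest were 4.59 ± 1.51 for thrombospondin 2 (95% interval 1.36 to 7.82, adjusted p = 0.171), 3.10 ± 0.77 for versican (95% interval 1.46 to 4.74, adjusted p = 0.0855) and 1.95 ± 0.59 for tenascin XB (95% interval 0.67 to 3.22, adjusted p = 0.144). Without Negative library 0, 3 genes passed: periostin (1.88, adjusted p = 0.0258), tenascin XB (3.01, adjusted p = 0.0135) and versican (4.50, adjusted p = 0.00563), while the share of all genes called was 4.24%. The Negative libraries were also the ones with the most erythroid RNA, with summed levels of 5 measured hemoglobin and red-cell genes of 16.02 to 16.5, against 6.95 to 11.31 in all other libraries; the part of this in the result was not tested. The interaction of the labels was called for none of the 9 and for 0% of all genes. An unadjusted p under 0.05 was found for 4 of the 9 and for 1296 of all 14177 genes tested.

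Against the mean of the other 4 groups, 4 of the 9 genes were called in the Wnt2 cells, against 2.16% of all genes. Fibronectin was the 1 that was higher (1.02 ± 0.18, 95% interval 0.62 to 1.41, adjusted p = 0.00983; 0.719% of all genes were called higher). The 3 that were lower, beside 1.44% of all genes, were periostin (-2.05 ± 0.32, 95% interval -2.74 to -1.37, adjusted p = 0.00374), Sparc (-0.75 ± 0.17, 95% interval -1.11 to -0.39, adjusted p = 0.0296) and thrombospondin 2, which both Wnt2 libraries list at their lowest value (adjusted p = 0.00482). The median of the 9 was -0.75, beside 0.13 over all genes. Versican differed from the mean of the others by 0.11 ± 0.61 (adjusted p = 0.951) and tenascin C by -0.43 ± 0.34 (adjusted p = 0.607). Sparcl1 was at 0.64 ± 0.22 (95% interval 0.17 to 1.11, adjusted p = 0.184).

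Leaving out Wnt2 library 1 ended all 4 of the Wnt2 calls: Postn was then at -2.12 (adjusted p = 0.0568), Fn1 at 0.81 (adjusted p = 0.29), Sparc at -0.95 (adjusted p = 0.0838) and Thbs2 at an adjusted p of 0.0608. Without Wnt2 library 2, Fn1 alone was called, with Postn at -1.99 (adjusted p = 0.0708), Sparc at -0.55 (adjusted p = 0.521) and Thbs2 at an adjusted p of 0.0608. The Sparc call was also lost on leaving out library 1 of Axin2:Pdgfra, library 1 of Axin2 or library 2 of Pdgfra (-0.71 in each, adjusted p = 0.065, 0.0736 and 0.0653), and the Thbs2 call ended with values below 6 raised to 6 (adjusted p = 0.0731).

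Across the 36 neighbouring pairs of lineages in the orders of the 9 genes, 2 passed the test, beside 0.263% of all such pairs of all genes. These were the steps of periostin from Negative to Pdgfra and of fibronectin from Pdgfra to Axin2. The other 34 steps were not told apart from the spread between libraries, among them versican from Axin2 to Negative (3.10 ± 0.77, adjusted p = 0.0855) and Sparc from Negative to Axin2:Pdgfra (0.57 ± 0.21, 95% interval 0.11 to 1.02, adjusted p = 0.131).

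Over the 10 libraries the 9 genes held together in blocks, given here as a description, since the points share 5 lineages and 1 normalization. Periostin ran with osteopontin (Pearson's r = 0.87) and Sparc (r = 0.80), and against fibronectin (r = -0.93). Fibronectin also ran against osteopontin (r = -0.84) and Sparc (r = -0.80). Versican ran with tenascin C (r = 0.85) and tenascin XB (r = 0.82), and thrombospondin 2 ran with tenascin XB (r = 0.82) and tenascin C (r = 0.72). Sparcl1 belonged to no block, with r between -0.30 and 0.40 to each of the other 8. Periostin and thrombospondin 2, both matricellular, had an r of -0.13.

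**Figure D3:**
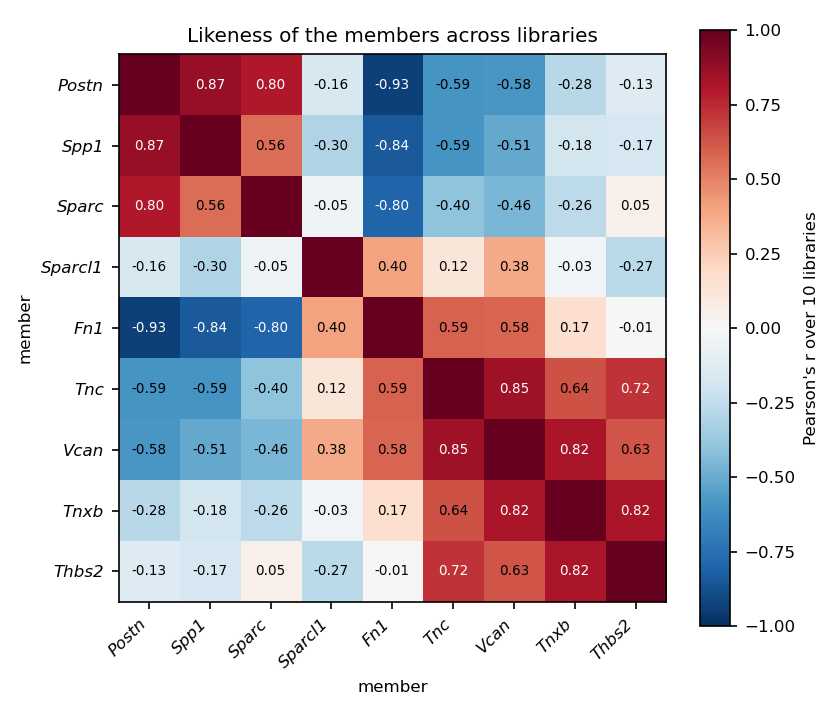
Pearson's r between the log2 levels of each pair of the 9 genes over the 10 libraries, from -1 (blue) to 1 (red), with both axes listing the genes. Postn, Spp1 and Sparc form a red block that is blue against Fn1, and Tnc, Vcan, Tnxb and Thbs2 form another, with r from 0.63 to 0.85.

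Among all genes tested, the 3 most like each of the 9 over the 10 libraries were named. For periostin they were Lipg (r = 0.990), Sdc3 (0.987) and Gucy1a2 (0.983), the last a subunit of soluble guanylate cyclase. For osteopontin they were Higd1b (0.957), Tmem131l (0.944) and Trpc6 (0.940), of which Higd1b and Trpc6 stand in the pericyte list. For thrombospondin 2 they were Fndc1 (0.975) and the collagens Col15a1 (0.963) and Col14a1 (0.950). For tenascin C they were Mir103-2 (0.938) and the collagens Col3a1 (0.937) and Col1a1 (0.925), which make up the main fibrils of the lung interstitium. Fibronectin was most like Npnt (0.970), the gene of nephronectin, with Cdh11 (0.963) and Robo2 (0.962) next. Versican was most like Tenm4 (0.963), Abcd4 (0.960) and the collagen VI gene Col6a3 (0.959). The genes most like tenascin XB were Cox15 (0.965), Pycr1 (0.962) and Atg9a (0.944), those most like Sparc were Zcchc3 (0.960), Mettl18 (0.953) and Dnajc6 (0.947), and those most like Sparcl1 were Rpl5 (0.948), Canx (0.934) and Cox19 (0.913).

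Most markers of pericytes, the contractile cells that wrap capillaries, moved with periostin and osteopontin. The summed level of 11 pericyte markers, all measured and none at the lowest value in any library, was 18.34 to 18.67 in Axin2, 16.6 to 17.74 in Negative, 14.88 to 15.03 in Pdgfra, 14.56 to 15.11 in Axin2:Pdgfra and 13.79 to 14.26 in Wnt2. The sum was lowest in Wnt2, while the means of periostin and osteopontin were lowest in Axin2:Pdgfra. Gucy1a1 and Pdgfrb, with means of 16.77 and 16.63, were the highest of these markers in Axin2 and so weigh most in that sum. The defining marker Pdgfrb was at 16.32 and 16.94 in Axin2 and at 12.61 and 12.67 in Axin2:Pdgfra. Of the 11 markers, 9 were called lower in Axin2:Pdgfra than in Axin2 (median -4.60), beside 1.38% of all genes. In Pdgfra 4 were called lower than in Negative (median -2.62), beside 0.875% of all genes, and none was called higher in either comparison. Abcc9 and Kcnj8 went the other way in both, and neither was called. Their means were 12.57 and 12.39 in Axin2:Pdgfra against 12.25 and 11.25 in Axin2. They were 12.51 and 10.18 in Pdgfra against 10.49 and 8.16 in Negative. The part of pericytes in the levels of periostin and osteopontin was not tested.

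Marker sums of 2 kinds of fibroblast are given beside fibronectin and thrombospondin 2. The summed level of 10 alveolar fibroblast markers was 19.54 to 19.94 in Wnt2, 18.84 to 18.85 in Axin2:Pdgfra, 18.65 to 18.82 in Pdgfra, 17.58 to 17.63 in Negative and 17.5 to 17.7 in Axin2, and fibronectin was likewise highest in Wnt2 and lowest in Axin2 and Negative. Macf1 was the highest of these markers in every group (18.99 ± 0.38 in Wnt2, 17.72 in both Axin2:Pdgfra and Pdgfra, 16.26 ± 0.18 in Negative and 15.62 ± 0.17 in Axin2; SD, n = 2) and so weighs most in the sum. The median of the 10 markers was 15.15 to 15.17 in Wnt2, 14.42 to 14.92 in Axin2:Pdgfra, 14.3 to 15.01 in Pdgfra, 14.12 to 14.27 in Axin2 and 13.08 in Negative. The sum of 10 adventitial fibroblast markers was 16.74 to 17.14 in Axin2:Pdgfra, 16.0 to 16.74 in Pdgfra, 14.73 to 15.02 in Axin2, 14.27 to 14.9 in Negative and 13.55 to 14.12 in Wnt2. Thrombospondin 2 was likewise highest in the groups with the Pdgfra label, and both Wnt2 libraries list it at their lowest value. The part of either cell type in these levels was not tested. No macrophage or leukocyte marker was called in either Pdgfra comparison, and the sum of the 9 measured was 14.71 to 15.67 in Negative, 14.56 to 15.0 in Pdgfra, 13.27 to 14.25 in Axin2, 13.45 to 13.85 in Wnt2 and 13.21 to 13.97 in Axin2:Pdgfra.

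**Figure D4:**
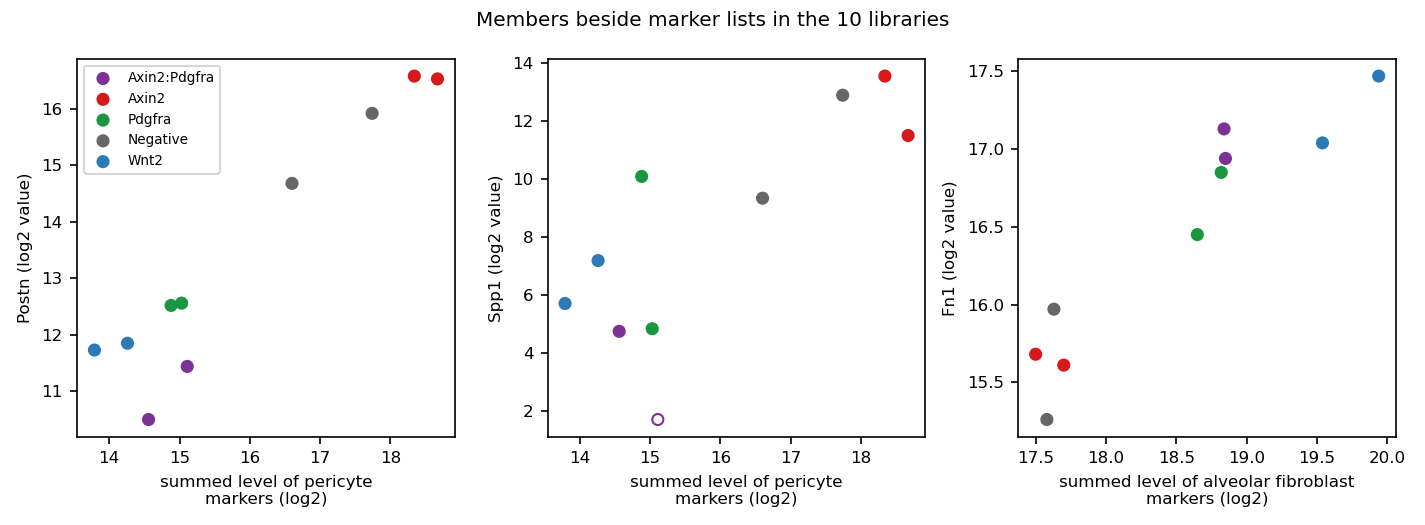
Log2 level of Postn, Spp1 and Fn1 (vertical axes) against the summed log2 level of pericyte or alveolar fibroblast markers (horizontal axes) in the 10 libraries, coloured by lineage; an open point is a library in which the gene is listed at the lowest value. The Axin2 and Negative libraries, with pericyte sums of 16.6 to 18.67, hold the highest Postn, and the Wnt2 libraries, with alveolar fibroblast sums of 19.54 to 19.94, lie at the upper end for Fn1.

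In this and the lists that follow, calls stand beside the shares of all genes called with the Pdgfra label. These were 0.924% higher and 1.38% lower within the Axin2 lineage, and 2.03% higher and 0.875% lower outside it. Of all genes, 50.8% had a difference above 0 within the lineage and 50.9% outside it. Among other matricellular genes, 15 of 19 listed were tested. None was called within the Axin2 lineage, where their median difference with the Pdgfra label was 1.07 and 11 of 15 were above 0. Outside it 3 rose: Thbs1, the thrombospondin that activates latent TGF-beta (2.87 ± 0.28, adjusted p = 0.000295), Ccn5 (2.95 ± 0.46, adjusted p = 0.00376) and Smoc2, a relative of Sparc (7.55 ± 1.74, adjusted p = 0.0334, with 1 Negative library at the lowest value). The testican Spock2 fell (-2.46 ± 0.49, adjusted p = 0.0159). Thbs1 was at 15.77 ± 0.51 (SD, n = 2) in Pdgfra, 15.61 ± 0.07 in Axin2:Pdgfra, 14.51 ± 0.11 in Axin2, 14.24 ± 0.29 in Wnt2 and 12.91 ± 0.26 in Negative, so that the Wnt2 cells, whose 2 libraries list Thbs2 at their lowest value, had Thbs1 near its level in Axin2.

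Of 16 adhesion receptor genes, all tested, 2 rose and 2 fell with the Pdgfra label within the Axin2 lineage, and 1 rose and 2 fell outside it; the medians were -0.20 and -0.12. Integrin alpha 8 (Itga8), whose heterodimer binds fibronectin, osteopontin, tenascin C and nephronectin, rose in both (1.43 ± 0.26, adjusted p = 0.00977, and 2.48 ± 0.26, adjusted p = 0.000407). Its level was 16.52 ± 0.09 in Wnt2, 15.79 ± 0.08 in Axin2:Pdgfra, 15.41 ± 0.19 in Pdgfra, 14.36 ± 0.29 in Axin2 and 12.93 ± 0.5 in Negative (SD, n = 2). Integrin alpha 4 (Itga4), which binds fibronectin and osteopontin, fell in both (-6.31 ± 1.0, adjusted p = 0.00445, and -4.76 ± 1.0, adjusted p = 0.0196), from 12.25 ± 0.1 in Axin2 to 5.94 ± 1.22 in Axin2:Pdgfra and from 11.43 ± 0.39 in Negative to 6.67 ± 0.12 in Pdgfra. Integrin alpha 9 (Itga9), a tenascin C receptor, rose within the lineage (1.78 ± 0.34, adjusted p = 0.0134), where focal adhesion kinase (Ptk2) fell (-2.11 ± 0.47, adjusted p = 0.0337). Integrin beta 3 (Itgb3) fell outside it (-3.29 ± 0.67, adjusted p = 0.0178). The hyaluronan receptor Cd44 was not called in either comparison (0.42 and 0.71).

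Of 16 hyaluronan and versican partners listed, 13 were tested. Fibulin 1 (Fbln1), which binds versican and fibronectin, rose in both comparisons (2.13 ± 0.36, adjusted p = 0.00654, and 2.80 ± 0.36, adjusted p = 0.00107) and was the 1 call within the Axin2 lineage. Outside it fibrillin 1 (Fbn1, 1.04 ± 0.25, adjusted p = 0.0409) and the hyaluronan synthase Has1 (6.97 ± 1.27, adjusted p = 0.00876, with 1 Negative library at the lowest value) rose too, and none fell. The medians were 0.52 inside and 1.79 outside the lineage.

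A list of proteases that cut matricellular proteins and proteoglycans also held their inhibitors Timp1, Timp2 and Timp3. The genes of it called with the Pdgfra label were all proteases and all rose, and no inhibitor was called. Of 12 tested, 2 rose within the Axin2 lineage, Mmp2 (2.21 ± 0.37, adjusted p = 0.00654) and the versican-cleaving Adamts1 (1.51 ± 0.35, adjusted p = 0.039), and all 12 differences were above 0 (median 1.48). Outside it 5 rose and none fell (median 2.57): Adamts1 by 3.39 ± 0.35 (adjusted p = 0.000407), Adamts9 by 2.66 ± 0.37 (adjusted p = 0.002), Adamts15 by 3.40 ± 0.65 (adjusted p = 0.0114), Adamts5 by 3.78 ± 0.88 (adjusted p = 0.035) and Mmp2. Adamts1 was at 14.71 ± 0.36 in Pdgfra and 11.32 ± 0.21 in Negative (SD, n = 2). The 2 genes of the list below 0 outside the lineage were the inhibitors Timp2 and Timp3.

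Of 12 genes of TGF-beta signalling and storage, Ltbp1, which holds latent TGF-beta in the matrix, rose with the Pdgfra label inside the Axin2 lineage (1.26 ± 0.30, adjusted p = 0.0436) and outside it (1.71 ± 0.30, adjusted p = 0.00681). Ltbp2 fell in both (-3.47 ± 0.45, adjusted p = 0.0012, and -2.70 ± 0.45, adjusted p = 0.00495), and Ltbp4 rose outside it (0.97 ± 0.23, adjusted p = 0.0403). The medians of the list were 0.47 and 0.27.

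Contractile genes that define myofibroblasts and smooth muscle fell with the Pdgfra label where they were called within the Axin2 lineage, as periostin and osteopontin did. Of 13 tested, 5 fell there and none rose (median -2.93): Cnn1 (-5.98 ± 1.28, adjusted p = 0.0272), Myh11 (-3.81 ± 0.77, adjusted p = 0.0186), Acta2 (-3.54 ± 0.66, adjusted p = 0.0114), Tpm2 (-3.02 ± 0.71, adjusted p = 0.0411) and Des. Outside it none fell and 1, the myosin light chain kinase Mylk, rose (1.37 ± 0.21, adjusted p = 0.00376), with a median of -1.48. Smooth muscle actin, Acta2, was at 16.26 ± 0.02 in Axin2, 13.22 ± 1.6 in Negative, 12.73 ± 1.31 in Axin2:Pdgfra, 11.33 ± 0.13 in Pdgfra and 9.51 ± 0.52 in Wnt2 (SD, n = 2). In the Wnt2 cells 7 of the 13 were called lower than the mean of the other groups and none higher, beside 1.44% and 0.719% of all genes.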

How the data were processed

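RNA of sorted lung mesenchymal cells was extracted with Trizol and sequenced on Illumina libraries, per the labels' protocols. Per the submitters' processing notes, the authors used STAR and limma with the mouse build mm9; which versions, annotation, counter and strand setting they used is not given in the sources used here. Each deposited table holds 1 log2 value per gene; the log base was inferred from the values, and whether they are per gene length is not given, so levels were not compared between genes. Without counts the depth is unknown, and no interval for counting error is given.

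A gene was tested if 2 or more libraries had it at log2 6 or above (14177 of 14854 genes; 677 were set aside). All 10 libraries entered 1 linear model with a mean for each of 5 groups and no covariate, leaving 5 residual degrees of freedom. The functions lmFit and eBayes (trend, robust) of limma 3.58.1 were run in R 4.3.3. P-values were two-sided and adjusted by the Benjamini-Hochberg (BH) method over all genes within a comparison, and over all genes in each pair of lineages, at a threshold of 0.05. The method was also run on simulated, normally distributed values with large planted changes and no shared lowest value. That run does not cover small differences, such as those of Fn1 and Sparc, or genes listed at the lowest value. Differences are given with their SE and group levels as mean ± SD.

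The 9 genes and all lists were chosen with earlier results of these data known. Named genes are the 9, the 3 genes most like each, the label genes, and up to 4 genes past the threshold with the largest difference per list of related genes and Pdgfra comparison; Cd44, Des, Acta2 outside the Axin2 lineage and the levels of Thbs1, Itga4, Itga8 and Adamts1 were given after their values were seen. Alternatives were no filter and a filter at 8, values below 6 raised to 6, eBayes without trend and robust, the replicate number as a block, the second library index as a covariate, leaving out each library, and, chosen after seeing the data, leaving out the 2 libraries with most genes at the lowest value.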

Additional observations from a re-analysis of the deposited data

How the results depend on the processing

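Of the 9 genes, eBayes without trend and robust called 2 in the F-test (Postn and Thbs2) in place of 8, and 0 neighbouring pairs in place of 2. It called 1 in place of 3 for Axin2:Pdgfra minus Axin2 (0.67% of all genes in place of 2.3%). For Pdgfra minus Negative it called 1 in place of 7 (0.501% of all in place of 2.91%). For Wnt2 against the rest it called 1, Thbs2, in place of 4 (0.466% of all in place of 2.16%). Without the 2 libraries with most genes at the lowest value (Negative 2 and Axin2:Pdgfra 2), an alternative chosen after seeing the data, 1 Negative library was left. There Thbs2 (6.96), Sparc (-0.97) and Tnxb (1.53) lost their calls in Pdgfra minus Negative. With each library left out in turn, the counts were 6 to 8 in the F-test, 1 to 3 neighbouring pairs, 1 to 4 for Axin2:Pdgfra minus Axin2, 1 to 7 for Pdgfra minus Negative, 0 for Axin2:Pdgfra minus Pdgfra, 0 to 3 for Axin2 minus Negative, 0 to 1 for the interaction and 0 to 4 for Wnt2. In the F-test Tnxb lost its call in 7 of 10 such fits (adjusted p up to 0.11) and Spp1 in 3 (up to 0.0984). The share of all genes called changed between these fits too, as given above for some of them. The cause was not tested, and fits without a library have fewer samples. No filter, a filter at 8, values below 6 raised to 6 and the index covariate left each of these counts within 1.5 times.

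The replicate numbers did not pair the libraries: deviations of same-numbered libraries from their group means correlated by -0.06 to 0.03 over the 6 pairs of groups numbered 1 and 2; the Negative group, numbered 0 and 2, was not in this check. As the only library numbered 0, Negative library 0 is alone in its block, so a fit with the replicate number as a block also takes that library out of the group comparisons, and 3 residual degrees of freedom remain. In it Axin2 minus Negative had 3 calls in place of 0, beside 2.79% of all genes in place of 0.600%. They were Postn (1.74, adjusted p = 0.0429), Tnxb (3.05, adjusted p = 0.0234) and Vcan (4.23, adjusted p = 0.0148). Axin2:Pdgfra minus Axin2 had 4 calls, beside 2.79% of all genes in place of 2.3%. Pdgfra minus Negative had 5, beside 2.65% in place of 2.91%, and Sparc (-1.0, adjusted p = 0.0666) and Fn1 (0.71, adjusted p = 0.158) were not called there. The block also turned the sign of Sparc and Fn1 in Axin2 minus Negative (-0.02 and -0.29) and of the Sparcl1 interaction (0.03).

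The other sign changes were in differences that no fit called. With the index covariate they were Sparc (-0.0072) and Fn1 (-0.0035) in Axin2 minus Negative, and Sparcl1 in Axin2:Pdgfra minus Axin2 (0.01) and in the interaction (0.04). Without the 2 libraries they were Spp1 in Axin2 minus Negative (-0.37), Tnc (0.0022) and Tnxb (-0.46) in Axin2:Pdgfra minus Pdgfra, Sparcl1 in Axin2:Pdgfra minus Axin2 (0.30) and in the interaction (0.39), Fn1 in the interaction (-0.10) and Vcan in Wnt2 (-0.25). With each library left out, Axin2 minus Negative ran from -0.37 to 3.18 for Spp1, -0.13 to 0.23 for Sparc and -0.32 to 0.39 for Fn1. Axin2:Pdgfra minus Pdgfra ran from -0.57 to 0.0022 for Tnc and -0.46 to 0.52 for Tnxb. Sparcl1 ran from -0.37 to 0.30 in Axin2:Pdgfra minus Axin2, -0.21 to 0.16 in Pdgfra minus Negative and -0.34 to 0.33 in the interaction, where Fn1 ran from -0.0037 to 0.70. Wnt2 against the rest ran from -1.13 to 0.26 for Tnc and -0.66 to 0.88 for Vcan.

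With 2 libraries a group and no counts, differences of low genes depend on each library's lowest value, and where 1 library of a group was left out the other was assumed to vary like the other groups.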
